A study of Mus musculus with 4 samples.

Results

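Sult1a1 and 7 other genes of sulfate conjugation, glutathione transfer and aldehyde oxidation were followed in sorted LSK cells of mouse bone marrow, before and after 5-fluorouracil (5FU). The 8 genes were Sult1a1, Gstm1, Gstm5, Gsta4, Gstt1, Aldh1a1, Aldh2 and Adh5, taken by their platform symbol. Each gene was read from the probe set that names it alone and has the highest mean over the 4 arrays, and 7 of the 8 had such a probe set, out of 22180 genes measured this way. Gstm5 had none, since its probe set is shared with 4933431E20Rik. The genes were chosen with their 5FU differences in view, so those differences are given as a description and were not tested.

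The arrays were 4 in number, with 1 for each group: Ctrl mice at day 0 (basal), AMKO mice at day 0, Ctrl mice at day 8 after 150 mg/kg of 5FU, and AMKO mice at day 8 after the same dose. All were male C57/B6 mice aged 4 months, and AMKO is a genotype label whose meaning no label spells out. How many mice gave the cells of an array is not stated either. LSK cells are lineage-negative, Sca-1-positive and c-Kit-positive, and hold the hematopoietic stem cells and multipotent progenitors. 5FU is a pyrimidine analog that kills dividing cells, and the series design gives stem cell activation as its purpose.

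Sulfotransferases move a sulfate group from the donor PAPS onto phenols, steroids and other acceptors, and SULT1A1 is the phenol enzyme of the family. Glutathione transferases join glutathione to reactive electrophiles, including the aldehyde products of lipid oxidation. Aldehyde dehydrogenases oxidise aldehydes to acids: ALDH1A1 makes retinoic acid from retinaldehyde, ALDH2 is the mitochondrial enzyme that clears acetaldehyde, and ADH5 removes formaldehyde bound to glutathione. In blood research, aldehyde dehydrogenase activity is used to sort stem and progenitor cells, and loss of aldehyde clearance damages stem cell DNA.

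The start regions of the genes are shown first, with those of Sult1a1, Gstt1, Aldh1a1 and the related Gstm2 beside that of Gstm5, whose window matched 2 of the motifs searched. They are a choice among the windows searched, made after the values were seen, and the matches in the other windows follow in words. RefSeq promoter windows (GRCm38.p6) matched 6 of the 8 genes with 9 windows, and Gsta4 and Aldh2 had no entry. The sequences run 5′ to 3′ on the gene's strand over the 250 bases before the annotated start. Searched on both strands were TGACNNNGC, the core of the antioxidant response element bound by NRF2, and GCGTG, the core of the xenobiotic response element bound by the aryl hydrocarbon receptor. Motifs of blood cell factors were added after the values were seen. The RUNX motif was searched as TGTGGT. For the ETS factor PU.1 the letters were GAGGAA. For the erythroid and stem cell GATA factors they were GATAAG. Capitals mark every match, and a sequence without capitals holds none of the 5.
Sult1a1, chr7:126676419-126676668, minus strand: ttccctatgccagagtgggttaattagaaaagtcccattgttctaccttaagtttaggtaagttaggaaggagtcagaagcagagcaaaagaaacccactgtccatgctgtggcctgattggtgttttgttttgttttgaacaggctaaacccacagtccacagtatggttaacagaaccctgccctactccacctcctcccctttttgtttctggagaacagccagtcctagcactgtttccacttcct
Gstt1, chr10:75797732-75797981, minus strand: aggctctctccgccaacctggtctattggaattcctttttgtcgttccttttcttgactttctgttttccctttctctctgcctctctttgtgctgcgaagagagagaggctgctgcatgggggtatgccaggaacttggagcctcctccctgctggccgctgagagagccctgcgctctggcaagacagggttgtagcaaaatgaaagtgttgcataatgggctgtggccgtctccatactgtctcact
Aldh1a1, upstream start, chr19:20492333-20492582, plus strand: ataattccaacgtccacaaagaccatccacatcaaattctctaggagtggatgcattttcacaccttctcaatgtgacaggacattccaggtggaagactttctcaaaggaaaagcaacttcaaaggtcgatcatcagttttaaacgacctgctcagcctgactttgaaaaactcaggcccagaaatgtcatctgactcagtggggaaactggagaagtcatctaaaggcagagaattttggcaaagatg
Aldh1a1, downstream start, chr19:20601718-20601967, plus strand: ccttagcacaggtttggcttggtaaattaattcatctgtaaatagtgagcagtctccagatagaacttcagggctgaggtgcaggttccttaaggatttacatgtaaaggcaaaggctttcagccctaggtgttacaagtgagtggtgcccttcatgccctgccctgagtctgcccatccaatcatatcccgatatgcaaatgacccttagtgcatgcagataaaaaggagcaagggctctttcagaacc
Gstm2, chr3:107986421-107986670, minus strand: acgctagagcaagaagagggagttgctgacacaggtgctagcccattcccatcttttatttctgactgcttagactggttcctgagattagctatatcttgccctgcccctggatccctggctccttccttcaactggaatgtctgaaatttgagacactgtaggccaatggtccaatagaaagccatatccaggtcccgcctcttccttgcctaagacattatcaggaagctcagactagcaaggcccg
Gstm5, chr3:107895604-107895853, plus strand: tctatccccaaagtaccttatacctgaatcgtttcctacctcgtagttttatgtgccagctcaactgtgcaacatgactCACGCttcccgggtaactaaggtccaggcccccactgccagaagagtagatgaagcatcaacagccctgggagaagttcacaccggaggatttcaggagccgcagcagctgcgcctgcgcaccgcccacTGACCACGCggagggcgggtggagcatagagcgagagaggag

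The windows of Sult1a1, Gstt1 and Gstm2, and both windows of Aldh1a1, held none of the 5 motifs. Other genes with lower day 8 signals did have matches: the window of Ephx1 held the PU.1 motif, that of Hpgds the RUNX and PU.1 motifs, and that of Rarb the xenobiotic core. The Gstm5 window held TGACCACGC, a match to the antioxidant core that starts 42 bases before the gene's start and overlaps a reverse match to GCGTG at 38 bases, and a further reverse match to GCGTG at 171 bases. Both Gstm1 windows, which overlap, held the same GCGTG. One Adh5 window held the PU.1 motif and the other the RUNX motif. Over all 32851 windows of this length, 10.2% held the antioxidant core, 28.2% the xenobiotic core, 14.0% the RUNX motif, 23.3% the PU.1 motif and 6.55% the GATA motif. A match is a run of letters and was not tested as a binding site. Base composition differed among the windows: Sult1a1 had 45.6% G or C, Gstt1 52.8%, Aldh1a1 42.8% and 46.4%, Gstm2 49.6% and Gstm5 56.8%. The Gstm1 windows had 54.8% and 57.6% and those of Adh5 45.2% and 63.6%, beside a median of 52.4% over all windows.

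Sult1a1 had log2 signals of 9.67 in the Ctrl basal array and 10.17 in AMKO basal, and 5.81 in Ctrl day 8 and 6.19 in AMKO day 8 (probe set 17496354). Both basal arrays therefore lay far above both day 8 arrays, and the day 8 values stayed just above the floor of 5.475, the median of all values, at or above which a gene's highest value had to lie to be kept. Day 8 minus basal, in log2 units, came to -3.86 for Ctrl and -3.98 for AMKO. Among the 14061 genes past the floor these ranked as the 5th lowest difference in Ctrl and the lowest in AMKO. The difference between the genotypes' 5FU differences was -0.12, small beside their size.

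Aldh1a1 had a high signal in every array, with 10.16 in Ctrl basal, 10.29 in AMKO basal, 8.98 in Ctrl day 8 and 9.22 in AMKO day 8. At day 8 its Ctrl signal was 2.27-fold lower and its AMKO signal 2.10-fold lower, and the basal and day 8 values did not overlap. Gstt1, a theta-class transferase that acts on small halogenated compounds, had signals of 8.07, 8.10, 6.65 and 7.20 in the same order of arrays. At day 8 it was lower by 2.68-fold (Ctrl) and 1.87-fold (AMKO), so both day 8 arrays were low and the Ctrl one was the lower.

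Gstm1, a mu-class transferase, had signals of 7.94 in Ctrl basal, 7.71 in AMKO basal, 7.31 in Ctrl day 8 and 7.34 in AMKO day 8. The day 8 values were below both basal values by a smaller step, with differences of -0.63 in Ctrl and -0.37 in AMKO. The probe set shared by Gstm5 and 4933431E20Rik had values of 9.32, 8.92, 8.24 and 8.58, with differences of -1.08 in Ctrl and -0.34 in AMKO, and the part of each gene in them cannot be told apart. Gsta4, an alpha-class transferase for the lipid aldehyde 4-hydroxynonenal, had signals of 7.83 in Ctrl basal, 7.08 in AMKO basal, 6.84 in Ctrl day 8 and 7.63 in AMKO day 8. Its order differed from that of the other enzymes: Ctrl was lower at day 8 by 0.99 on the log2 scale, and AMKO was higher by 0.55.

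Aldh2 had signals of 9.59 in Ctrl basal, 9.51 in AMKO basal, 9.65 in Ctrl day 8 and 9.62 in AMKO day 8, a range of 0.14 over the 4 arrays. A second Aldh2 probe set had 8.34, 8.45, 8.71 and 8.63, with day 8 differences of 0.37 in Ctrl and 0.18 in AMKO. Adh5 had 8.42, 8.32, 8.43 and 8.59, a range of 0.27. The day 8 differences of Aldh2 were 0.06 and 0.11 and those of Adh5 0.01 and 0.27 for Ctrl and AMKO. After quantile normalization they became -0.05 and -0.07 for Aldh2 and -0.07 and 0.13 for Adh5, so no direction is given for Aldh2, nor for Adh5 in Ctrl. The spans of both genes over the arrays were far narrower than the 1.31 of Aldh1a1.

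**Figure D1:**
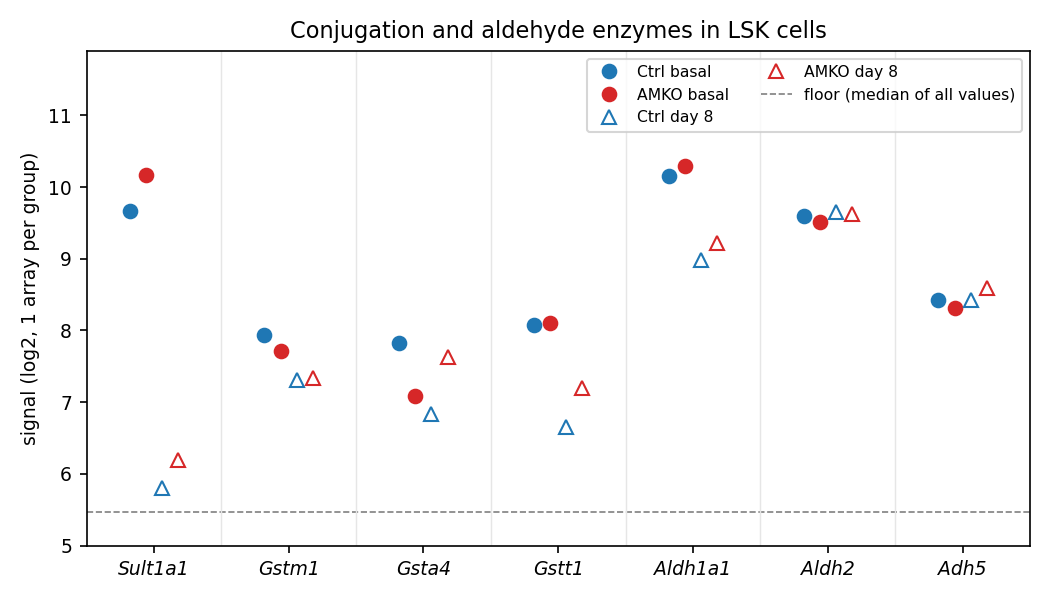
Log2 signal (y axis) of the 7 enzymes with a probe set of their own (x axis), with 1 point per array and no error bars, since each group had 1 array. Sult1a1 sits at 9.67 and 10.17 at basal and at 5.81 and 6.19 at day 8, while the 4 points of Aldh2 span 0.14.

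In all, 3 of the 7 measured genes (Sult1a1, Gstt1 and Aldh1a1) were at least 2-fold lower at day 8 in Ctrl, against 4.46% of the 14061 genes, and 2 (Sult1a1 and Aldh1a1) in AMKO, against 3.55%. None of the 7 was at least 2-fold higher in either genotype, where 5.02% and 4.69% of all genes were. The median difference of the 7 was -0.99 in Ctrl and -0.37 in AMKO, beside 0.01 and 0.03 over all genes. Since the genes were chosen on these differences, the counts describe the choice. Gsta4 in Ctrl at -0.99 and Gstt1 in AMKO at -0.90 lay just short of the 2-fold size, and Aldh1a1 in AMKO at -1.07 just past it. With each array centred on its median, Aldh1a1 in AMKO became -0.96 and the AMKO count 1.

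**Figure D2:**
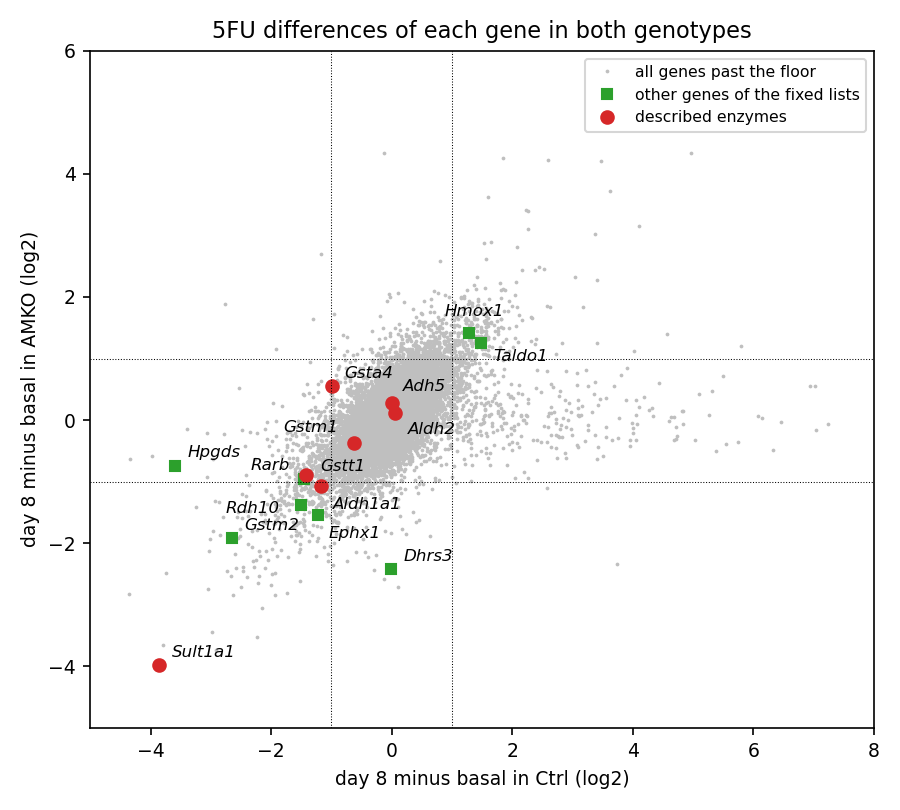
Day 8 minus basal difference (log2) in Ctrl (x axis) and in AMKO (y axis) for the 14061 genes past the floor (grey), the 7 enzymes (red) and 8 further genes of the fixed lists (green squares), with dotted lines at the 2-fold size. Sult1a1 lies at the lower left end of the cloud at -3.86 and -3.98, and Gsta4 lies left of 0 and above 0 at -0.99 and 0.55.

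Which cells the lower signals came from cannot be read from bulk RNA: fewer cells of a type and less RNA per cell cannot be told apart. Of all genes past the floor, 4.46% were at least 2-fold lower and 5.02% higher at day 8 in Ctrl. The AMKO shares were 3.55% and 4.69%, and both stand beside the marker counts that follow. Of 15 measured stem cell marker genes, 6 were at least 2-fold lower at day 8 in Ctrl: Procr, Fgd5, Hoxb5, Vwf, Gprasp2 and Pdzk1ip1. In Ctrl 1, Ifitm1, was higher (1.55, and 0.18 in AMKO). In AMKO 3 were lower (Hoxb5, Vwf and Gprasp2) and 0 higher. Slamf1, Mecom, Tek and Ctnnal1 were among those that differed by less than 2-fold in both genotypes. The medians of the 15 genes were -0.78 in Ctrl and -0.70 in AMKO. Their mean log2 signal was 8.78 in Ctrl basal, 8.72 in AMKO basal, 8.03 in Ctrl day 8 and 8.17 in AMKO day 8. All 6 multipotent progenitor markers were at least 2-fold higher in Ctrl and 1, Cd48, in AMKO, with mean signals of 5.80, 5.91, 8.22 and 6.84 in the same order of arrays. Cd48 differed by 4.97 in Ctrl and 4.34 in AMKO, Flt3 by 1.57 and 0.52, and Cd34 by 1.03 and 0.64. For Il7r (3.96 and -0.42), Dntt (1.59 and 0.30) and Satb1 (1.38 and 0.23) the rise was in Ctrl. The Ctrl day 8 array also had high B-lineage and neutrophil markers, and the part of those cells in these values was not tested. The sort marker Kit differed by -0.76 and -0.71, and Ly6a, which encodes Sca-1, had no probe set of its own. Megakaryocyte markers had 4 of 7 genes past the floor at least 2-fold lower in each genotype, of which 3 were lower in both (means of all measured 8.75, 8.82, 7.65 and 7.94). Endothelial markers had 4 of 8 lower in Ctrl and 3 of 8 in AMKO (means 8.11, 8.03, 7.15 and 7.37). The part of these cell types in the lower Sult1a1, Gstt1 and Aldh1a1 signals was not tested.

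The Ctrl arrays also carried markers of other cells. All 13 mature neutrophil markers were at least 2-fold higher in the Ctrl day 8 array than in Ctrl basal, with mean log2 signals of 5.07 in Ctrl basal, 5.04 in AMKO basal, 10.6 in Ctrl day 8 and 5.20 in AMKO day 8. B-lineage markers had means of 5.46, 5.48, 7.75 and 5.58, and 7 of 9 were at least 2-fold higher in Ctrl day 8. The Ctrl basal array had the highest skeletal muscle markers, with means of 8.27, 5.83, 5.83 and 5.49. In Ctrl, 7 of 8 granulocyte-monocyte, 8 of 9 monocyte and macrophage, 2 of 3 T and NK and 3 of 8 erythroid markers past the floor were also at least 2-fold higher at day 8, and 0 of 4 stromal markers. In AMKO the counts were 0, 1, 1, 0 and 0 in that order, with 2 of 13 neutrophil and 0 of 9 B-lineage markers. The part of these cells in the Ctrl differences was not tested. In AMKO, where neither Ctrl array enters, the 5FU differences that served to choose the genes were -3.98 for Sult1a1, -1.07 for Aldh1a1, -0.90 for Gstt1, -0.37 for Gstm1 and 0.55 for Gsta4, so Gstt1 was short of 2-fold and Gsta4 had the opposite sign to Ctrl.

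Of 15 sulfotransferase genes, Sult1a1 was the one with a 2-fold difference. There were 10 genes under the floor in every array, and the 4 kept beside Sult1a1 differed by less than 2-fold. The Golgi tyrosine sulfotransferases Tpst1 (0.07 in Ctrl and 0.46 in AMKO) and Tpst2 (-0.36 and 0.00) were among them, as were Sult2a3 (0.58 and 0.03) and the cholesterol sulfotransferase Sult2b1 (0.27 and -0.17). For supply of the sulfate donor, 7 of 8 genes were kept and none was 2-fold different in either genotype. The PAPS synthases Papss1 (0.20 and 0.35) and Papss2 (0.54 and 0.40) and the Golgi PAPS transporters Slc35b2 (0.39 and 0.30) and Slc35b3 (-0.67 and -0.37) had the highest mean absolute differences of that list.

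Among 18 glutathione transferases past the floor, 3 were at least 2-fold lower and 1 higher in Ctrl, and 1 lower and 0 higher in AMKO, with list medians of -0.26 and -0.17. Over all genes, 4.46% were lower and 5.02% higher in Ctrl, and 3.55% and 4.69% in AMKO. Gstt1, which was chosen on its difference, is 1 of the 3 lower in Ctrl. Gstm2, a mu-class enzyme, was the lowest in AMKO and the second lowest in Ctrl, with signals of 8.27 in Ctrl basal, 8.16 in AMKO basal, 5.62 in Ctrl day 8 and 6.24 in AMKO day 8. Day 8 was thus 6.28-fold (Ctrl) and 3.78-fold (AMKO) lower. Hpgds, the prostaglandin D synthase of hematopoietic cells, had 7.64, 5.80, 4.05 and 5.06, so its difference was -3.59 in Ctrl and -0.74 in AMKO. Both day 8 values lay under the floor, and the Ctrl basal array was the highest. Gstt3 differed by -0.93 and -0.86, and the microsomal enzyme Mgst3 by 0.86 and 0.71. The 1 higher gene in Ctrl was Mgst1 (1.48, and -0.06 in AMKO). Its highest signal, 7.53, was in the Ctrl day 8 array of high neutrophil markers, and its link to those cells was not tested.

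By place in the genome, Sult1a1 and Gstm2 each lay beside genes with smaller differences, while Gstt1 in AMKO (-0.90) was close to its neighbour Gstt3 (-0.86). In RefSeq order the Gstm genes run Gstm5, Gstm7, Gstm6, Gstm3, Gstm2, Gstm1 and Gstm4. Gstm2 differed by -2.65 in Ctrl and -1.92 in AMKO, while its neighbours Gstm1 (-0.63 and -0.37) and Gstm3 (-0.14 and -0.11, under the floor) differed by less than 2-fold, as did Gstm4 (0.04 and -0.26) and Gstm7 (-0.31 and -0.08). Mu-class genes are similar in sequence and probe sets may share signal between them, so their single values are uncertain. In the Gstt cluster, Gstt3 (-0.93 and -0.86) and Gstt1 (-1.42 and -0.90) lie side by side, whereas Gstt2 differed by -0.27 and -0.34. Beside Sult1a1, the chromatin adaptor Sgf29 differed by -0.46 and -0.39. The gene next to it on the other side, Slx1b, had no probe set of its own, and Bola2 beyond that differed by 0.24 and 0.52. One gene beyond Sgf29, the stress-induced nuclear protein gene Nupr1 was at least 2-fold lower in both genotypes (-1.78 and -1.56). On the Bola2 side Coro1a, a leukocyte actin regulator, was higher by 1.03 and 0.75, and Gdpd3 beyond it differed by -1.59 and -0.26. Beyond Nupr1 on the Sgf29 side, Il27 differed by -0.60 and -0.02, Apobr by 0.57 and 0.62, and Cln3 by -0.69 and -1.03. These gene neighbourhoods were looked up after the values were seen.

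**Figure D3:**
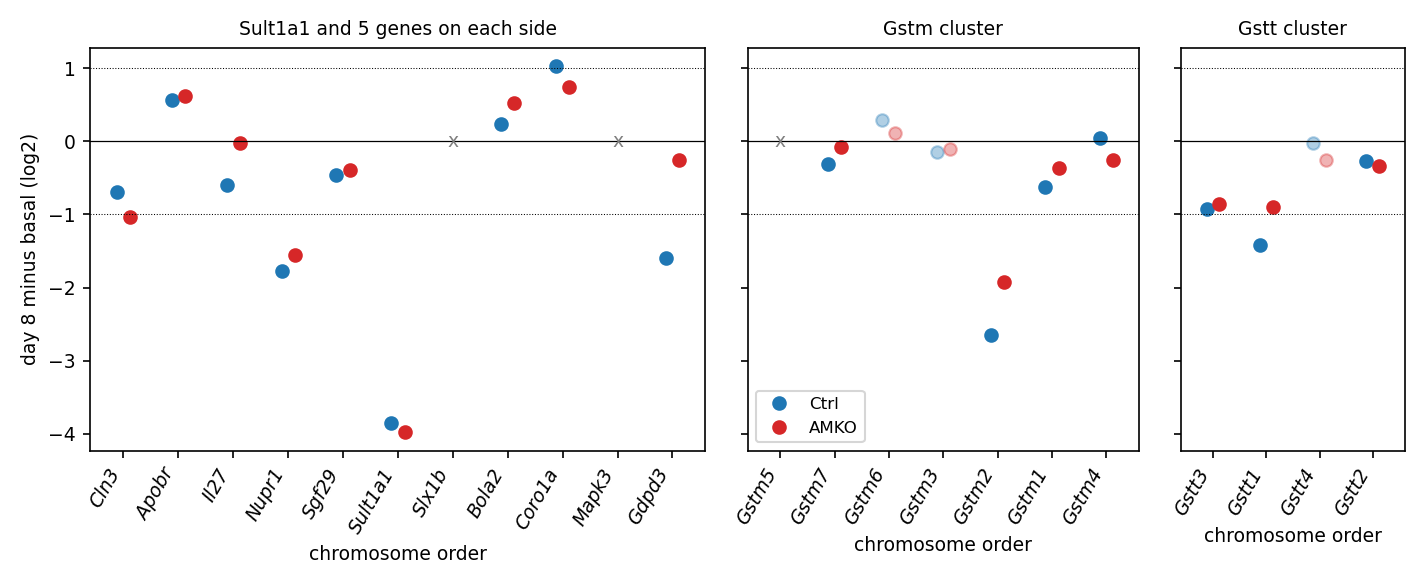
Day 8 minus basal difference (log2, y axis) in Ctrl (blue) and AMKO (red) for Sult1a1 with 5 protein-coding genes on each side, the Gstm cluster and the Gstt cluster, each in chromosome order along the x axis. Pale points are genes under the floor in every array, grey crosses are genes without a probe set of their own, and dotted lines mark the 2-fold size. Sult1a1 lies below the measured genes around it in both genotypes, with no value for Slx1b and Mapk3, and Gstm2 lies below Gstm3 and Gstm1.

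Of 15 aldehyde dehydrogenases past the floor, Aldh1a1 was the one gene at least 2-fold lower in each genotype, and the list medians were 0.04 in Ctrl and 0.28 in AMKO. Aldh1a1 was chosen on this difference, and 4.46% of all genes were lower in Ctrl and 3.55% in AMKO. Aldh9a1, which oxidises aminoaldehydes, had differences of 0.48 and 0.70, Aldh18a1, of proline synthesis, 0.47 and 0.57, and the mitochondrial Aldh1b1 0.94 and 0.53. Aldh3b1 had signals of 5.70 in Ctrl basal, 5.49 in AMKO basal, 8.47 in Ctrl day 8 and 5.88 in AMKO day 8, high in the single array where the neutrophil markers were high. The part of those cells in this value was not tested. Among 4 kept genes of alcohol dehydrogenases and formaldehyde clearance, none was 2-fold different. Cbr1, a carbonyl reductase, differed by -0.61 and 0.15, and Akr1a1, an aldehyde reductase, by 0.43 and 0.31.

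Aldh1a1 also acts in retinoid metabolism. Of 12 retinoid pathway genes past the floor, 3 were at least 2-fold lower in each genotype and none higher, against 4.46% and 3.55% of all genes lower, with medians of -0.22 and -0.32. Aldh1a1, which was chosen on its difference, is 1 of the 3 in each, and the others were Rdh10 and Rarb in Ctrl and Rdh10 and Dhrs3 in AMKO. Rdh10, which makes the retinaldehyde that ALDH1A enzymes oxidise, had signals of 9.29 in Ctrl basal, 9.10 in AMKO basal, 7.78 in Ctrl day 8 and 7.72 in AMKO day 8. It was 2.85-fold and 2.60-fold lower. Rarb, a retinoic acid receptor gene, differed by -1.45 and -0.95. Cyp26b1, which degrades retinoic acid, differed by -0.84 and -0.32, and the receptor gene Rarg by -0.44 and -0.46. Dhrs3, which turns retinaldehyde back to retinol, had 9.03, 10.09, 9.02 and 7.67, so it was 5.35-fold lower in AMKO and differed by -0.01 in Ctrl.

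Glutathione synthesis and turnover had 16 kept genes, of which none was at least 2-fold lower in either genotype. The medians were 0.06 for Ctrl and 0.25 for AMKO. Gsr, glutathione reductase, had differences of 1.71 (Ctrl) and 0.40 (AMKO), with its highest signal, 9.09, in the array of high neutrophil markers, where its link to those cells was not tested. Lap3, a leucine aminopeptidase, was higher by 0.64 and 1.21, and the peroxidase gene Gpx1 by 0.62 and 0.79. The surface peptidase gene Anpep differed by -0.80 and -0.72.

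NRF2, encoded by Nfe2l2, drives many conjugation genes, and its own gene (-0.11 and 0.10) and that of its inhibitor Keap1 (-0.11 and -0.06) differed by less than 2-fold between day 8 and basal. Of 13 kept genes of that list, 2 were at least 2-fold higher in both genotypes: Hmox1, heme oxygenase (1.29 and 1.42), and Taldo1, of the pentose phosphate pathway (1.48 and 1.26). Over all genes, 1.96% were higher in both. Of the list, 1 gene (Me1) was at least 2-fold lower in Ctrl and 0 in AMKO, with list medians of -0.11 and 0.35. Nqo1 differed by -0.51 in Ctrl and 0.52 in AMKO, and Me1, malic enzyme, by -1.47 and 0.42. Aryl hydrocarbon receptor genes past the floor numbered 6, with 0 lower and 1 higher in each genotype, where 5.02% (Ctrl) and 4.69% (AMKO) of all genes were higher. Ahr itself differed by -0.09 and -0.03, Tiparp, a target of the receptor, by 0.36 and 1.04, and Lpcat2 by 2.27 and 0.27. A mean over its probe sets gave 0.44 for Tiparp in AMKO. Lpcat2 had its highest signal, 7.35, in the Ctrl day 8 array of high neutrophil markers, and its link to those cells was not tested.

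Ephx1, microsomal epoxide hydrolase, belongs to the other conjugation enzymes, of which 4 were kept. Its signals were 8.83 in Ctrl basal, 8.17 in AMKO basal, 7.61 in Ctrl day 8 and 6.62 in AMKO day 8, or 2.33-fold and 2.93-fold lower at day 8. The acetyltransferase Nat2 (0.44 and 0.47) and the thiopurine methyltransferase Tpmt (0.18 and 0.61) differed by less than 2-fold. Leaving out the 7 measured enzymes, the lists held 88 genes past the floor. Of these, 6 were at least 2-fold lower and 6 higher in Ctrl, and 4 lower and 4 higher in AMKO, with medians near 0 (-0.01 and 0.13). Over all genes the shares were 4.46% lower and 5.02% higher in Ctrl, and 3.55% and 4.69% in AMKO. In both genotypes at once 3 of the 88 were lower (Gstm2, Ephx1 and Rdh10), against 1.98% of all genes, and 2 higher, against 1.96%.

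AMKO and Ctrl were then compared at each time, a contrast that did not serve to choose the genes. None of the 7 enzymes was 2-fold different at basal, where 0.697% of all genes were at least 2-fold lower and 0.228% higher in AMKO, nor at day 8, where the shares were 2.63% and 0.74%. Sult1a1 was higher in AMKO by 0.50 at basal and 0.38 at day 8. The additive limma fit over both times gave 0.44 with a standard error of 0.13 (unadjusted p 0.0356, adjusted p 0.906), so it did not pass. That fit has 1 residual degree of freedom, and its error is the difference between the genotypes' 5FU differences combined with a prior over genes, not a spread of replicates.

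Aldh1a1 was higher in AMKO by 0.13 and 0.24 and Gstt1 by 0.03 and 0.55, and their limma adjusted p was 0.906 each. Gsta4 was lower in AMKO at basal by 0.75 on the log2 scale and higher by 0.79 at day 8, so its average was 0.02 (standard error 0.43, limma adjusted p 0.997). The averages of Gstm1, Aldh2 and Adh5 lay between -0.10 and 0.03. With 7 enzymes tested among 14061 genes, limma called 0 enzymes and 0 genes, at an unadjusted p under 0.05 it had 1 enzyme and 446 genes (3.17%), and the fits with no trend and with robust variances each called 0 as well. Ephx1 was lower in AMKO at both times, by 0.66 and 0.99 on the log2 scale, and the limma average was -0.83 (standard error 0.16, unadjusted p 0.00845, adjusted p 0.906).

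The genes closest to Sult1a1 in pattern were found by the Euclidean distance between the 4 log2 values of each gene, centred on the gene's mean. They were Cldn5, a tight junction protein gene (0.86), Tc2n (0.98), the homeobox gene Hoxb6 (1.05), Zg16, a secreted lectin gene (1.21), Pygm, muscle glycogen phosphorylase (1.30), and Tns2, a tensin of focal adhesions (1.34), with distances in log2 units over 4 arrays. Cldn5 had signals of 8.85 in Ctrl basal, 9.06 in AMKO basal, 5.86 in Ctrl day 8 and 5.62 in AMKO day 8. Zg16 had 6.47, 7.76, 4.23 and 4.23. Like Sult1a1 (0.50), Cldn5 (0.21), Hoxb6 (0.40), Zg16 (1.29) and Tns2 (0.19) were higher in AMKO than in Ctrl at basal. Tc2n and Pygm were instead higher in Ctrl basal, the array with high muscle markers. A link of either gene to muscle RNA was not tested, and Pygm also had 9.23 in AMKO basal. Since the 6 were picked for closeness to Sult1a1, a lower day 8 signal follows from the choice. Each of the 6 was at least 2-fold lower at day 8 in both genotypes, and both day 8 values of Tc2n and Zg16 lay under the floor. Cldn5 is also on the endothelial marker list and Pygm on the skeletal muscle list.

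**Figure D4:**
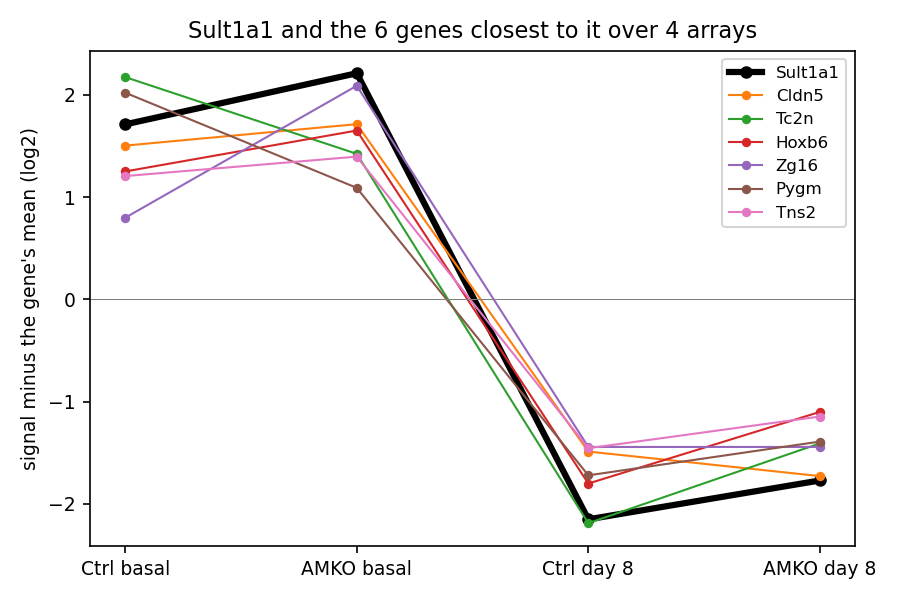
Log2 signal minus the gene's own mean (y axis) in the 4 arrays (x axis, 1 array per group, with lines joining the values of a gene as a guide to the eye) for Sult1a1 (thick black) and the 6 genes closest to it. All 7 lines are above 0 in both basal arrays and below 0 in both day 8 arrays, which follows from choosing genes close to Sult1a1.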

How the data were processed

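RNA of sorted LSK cells was measured on 4 Affymetrix arrays, 1 per group. A column kit gave the RNA and the cRNA carried biotin, per the labels' protocols. The authors deposited 1 value per probe set and array, read as log2 intensity because the values lay between 1.99 and 13.43. How background was corrected and arrays were normalized is not given in the sources used, and the values were not rescaled. Of 34472 probe sets, 23521 named 1 gene, 1814 several and 9137 none. For 23328 of those naming 1 gene, the Entrez identifier was found in a RefSeq table of GRCm38.p6, and the symbol was taken from there. The probe set with the highest mean stood for a gene, and 14061 of 22180 genes reached the overall median (5.475) in at least 1 array.

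Comparisons of 1 array with 1 array have no replicate error and no test, and a difference of at least 2-fold was counted. AMKO against Ctrl over both times was modelled in R 4.3.3 by limma 3.58.1 (eBayes, with the trend option, genotype and treatment as additive terms, Benjamini-Hochberg over all genes, two-sided, threshold 0.05), and tested on simulated data. In the simulated data the limma fit recovered 2.1% of genotype changes of 1 log2 unit and 71.7% of changes of 2 log2 units. A 2-fold genotype difference would therefore mostly be missed. Precision is limited by the number of arrays. The enzymes, the 10 pathway lists (151 genes, 135 measured, 95 past the floor), the cell type markers and the alternatives were chosen with earlier results of these data known. Named list genes were those 2-fold different in the same direction in both genotypes and up to 4 more by mean absolute 5FU difference. Further genes named, and the cluster and neighbour genes, were chosen after their values were seen. Python 3.11.15 was used for tables and figures.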

Additional observations from a re-analysis of the deposited data

Results flagged for a closer look

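Among the enzymes and the named list genes, results were singled out where the 2 genotypes, or the 2 times, had differences of opposite sign and at least 0.5 each on the log2 scale. These differences between differences were not tested, as each group had 1 array. Gsta4 differed at day 8 from basal by -0.99 in Ctrl and 0.55 in AMKO, and AMKO differed from Ctrl by -0.75 at basal and 0.79 at day 8. Nqo1 differed at day 8 from basal by -0.51 in Ctrl and 0.52 in AMKO. AMKO against Ctrl was -1.84 at basal and 1.01 at day 8 for Hpgds, whose day 8 values lay under the floor, and -0.70 and 1.19 for Me1. Dhrs3 had the opposite order, with 1.06 at basal and -1.35 at day 8.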

How the results depend on the processing

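Quantile normalization, dropping the floor, raising it to the 75th percentile (7.32) and a mean over a gene's probe sets left the counts of enzymes and of list genes 2-fold lower or higher after 5FU in both genotypes within 1.5 times of the values given. Median centring did so except for the enzymes at least 2-fold lower in AMKO and those lower in both genotypes, each of which became 1. It moved the median of all genes in AMKO by 0.12, to 0.15. The size that counts as a call mattered more. At 1.5-fold, 5 enzymes were lower after 5FU in Ctrl, 1 (Gsta4) was lower in AMKO at basal and 1 (Gsta4) higher in AMKO at day 8, and in both genotypes 10 list genes were lower and 5 higher. At 3-fold, 1 enzyme (Sult1a1) was lower in Ctrl and 1 in AMKO, hence 1 in both, and 2 list genes (Sult1a1 and Gstm2) were lower in both and 0 higher. Without both Ctrl arrays, a setting added after the data were examined, 6 list genes were lower and 4 higher. Scaling moved no enzyme's difference by more than 0.18, and none of at least 2-fold changed sign. The limma fit has 1 residual degree of freedom, so its 0 calls under each alternative say nothing about stability. No paired analysis was possible because each group had 1 array and the labels carry no replicate number.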
